A study of Mus musculus with 36 samples.

Results

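Cdkn1a, Cdkn1b and Cdkn1c, the 3 genes of the CIP/KIP inhibitors of cyclin-dependent kinases, and Gadd45a, Gadd45b and Gadd45g, the 3 growth arrest and DNA damage inducible genes, were followed through 36 expression arrays of mouse forebrain. They were found by their symbol in the platform annotation, which listed 10 probe sets for these 6 genes among 18193 genes with a probe set of their own. Cdkn1a, Cdkn1b and Gadd45b had several probe sets. The group was selected on the log2 signal of Cdkn1a in the bound fraction, which stood apart in sleep deprivation, and its relatives were added by name. State differences in the bound arrays are therefore given for all 6 genes as a description, without a p-value. Counts of members called in the bound arrays are printed too, and nothing is read from them. Tests are given for the unbound arrays, which came from the same animals, and for bound against unbound in the genes other than Cdkn1a. Whether unbound values entered the choice is not recorded, so the unbound tests of Cdkn1a are not known to be free of it.

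All 18 animals were adult C57BL/6 mice heterozygous for the Cnp-eGFP-L10a transgene, which puts a tagged ribosomal protein under the promoter of Cnp, a gene of oligodendrocytes, the myelin-forming cells. Ribosomes were immunoprecipitated from 1 forebrain sample per animal. The precipitate is the bound fraction, and the supernatant, with the RNA of neurons and other glia, is the unbound fraction. The fractions were purified with different kits, so fraction and kit cannot be told apart. Each state had 6 animals with both fractions. The sleep group was killed in the light phase, between 3 and 5 pm, at the end of a sleep bout of over 45 min and with at least 75% of the last 6 to 7 h spent asleep. The waking group was killed in the dark phase, between 3 and 5 am, after over 1 h awake and with at least 70% of the last 6 to 7 h spent awake. The sleep deprived group had been awake for most of the dark phase and was then held awake with unfamiliar objects for 4 h of the light period. Sleep and waking animals were numbered 1 to 6 and sleep deprived animals 6 to 11, and equal numbers in different states are different mice. State and time of day cannot be told apart between sleep and waking, nor between waking and sleep deprivation, which ended in the light period. The labels do not give the killing time of the sleep deprived group, so its match in hour to the sleep group is not known. No group without the transgene was used here.

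The CIP/KIP proteins p21 (Cdkn1a), p27 (Cdkn1b) and p57 (Cdkn1c) bind complexes of cyclins and cyclin-dependent kinases and stop the cell cycle. Cdkn1a is the textbook target of the transcription factor p53 and also responds to stress hormones and other signals, while p27 is known for the exit of oligodendrocyte precursors from the cell cycle. GADD45 proteins are small stress-induced proteins that bind p21, the proliferation factor PCNA and the kinase MAP3K4, and they have been linked to active removal of DNA methylation. Gadd45b is known in neurons as a gene induced by activity. Mature oligodendrocytes do not divide.

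The bases upstream of the starts of Cdkn1a and Gadd45a are shown because these were the members whose unbound level passed the test after sleep deprivation. RefSeq on the build GRCm38.p6 gave such sequence for 5 of the 6 genes, in 6 windows of 250 bases that end at the base before a transcript start. Cdkn1a had 2 of them, both on the plus strand, at chr17:29090729-29090978 and chr17:29093519-29093768, and Gadd45a had 1 on the minus strand at chr6:67037408-67037657. Capitals mark matches, on either strand, to 1 of 9 motifs searched.
Cdkn1a first start: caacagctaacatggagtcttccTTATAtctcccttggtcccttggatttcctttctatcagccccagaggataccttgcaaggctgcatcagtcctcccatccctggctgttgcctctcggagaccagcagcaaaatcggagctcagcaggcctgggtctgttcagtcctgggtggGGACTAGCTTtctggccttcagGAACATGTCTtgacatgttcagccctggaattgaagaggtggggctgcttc
Cdkn1a second start: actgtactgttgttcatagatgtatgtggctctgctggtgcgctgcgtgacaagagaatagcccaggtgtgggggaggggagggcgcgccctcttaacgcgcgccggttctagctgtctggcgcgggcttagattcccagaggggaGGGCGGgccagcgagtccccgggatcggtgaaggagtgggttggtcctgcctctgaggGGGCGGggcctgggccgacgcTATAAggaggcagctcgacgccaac
Gadd45a: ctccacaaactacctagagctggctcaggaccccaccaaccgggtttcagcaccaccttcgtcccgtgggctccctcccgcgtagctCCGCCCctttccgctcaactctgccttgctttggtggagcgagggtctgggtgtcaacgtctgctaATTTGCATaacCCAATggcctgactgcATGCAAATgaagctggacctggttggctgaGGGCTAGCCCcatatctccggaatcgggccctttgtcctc
The motifs were the TATA box (TATAA, in 22.8% of 32851 windows of this length), the CCAAT box (CCAAT, 33.8%), the GC box (GGGCGG, 32.7%), the AP-1 site (TGANTCA, 6.75%), the E-box (CACGTG, 6.02%), the octamer (ATGCAAAT, 1.6%), the glucocorticoid half-site (AGAACA, 16.1%), the heat shock element (GAANNTTC, 6.69%) and the p53 half-site (7.13%). The window of the first Cdkn1a start held 2 p53 half-sites, at bases −73 to −64 and −51 to −42 from the start, and a TATA match far upstream at −227 to −223. The window of the second start held 2 GC boxes and a TATA box at −25 to −21. Gadd45a had 2 octamers, at −97 to −90 and −70 to −63, a CCAAT box at −86 to −82 between them, a GC box and 1 p53 half-site at −40 to −31. None of the marked matches overlapped another. Gadd45g, whose window also held 1 octamer, shared a CCAAT box, an E-box and a TATA box with Gadd45b, and Cdkn1b had 2 CCAAT boxes and a GC box. The AP-1, glucocorticoid and heat shock letters were in none of the 6 windows, which says only that these letters are not there.

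Values are log2 signals per probe set, and their precision is limited by the number of arrays. Of 10 oligodendrocyte markers 9 were measured, and all 9 were higher in the bound arrays (median change 2.86 log2), while all 8 neuron, 6 astrocyte and 6 microglia markers were lower there. The average over all probe sets was almost the same for the 6 arrays of any group (SD 0.0029 to 0.0099 log2), and lay at 5.91 to 5.93 in bound and 6.34 to 6.41 in unbound groups. Whether the groups were normalized apart was not tested. In unbound arrays the median change of all genes was −0.09 log2 in waking against sleep and 0.11 in sleep deprivation against waking. Unbound changes of members that involve waking are to be read beside these medians. Sex-linked genes set 3 animals apart in both fractions, waking animals 3 and 5 and sleep deprived animal 11. Their mean of Y-linked genes was 2.64 to 3.53 log2, against 7.47 to 8.53 in the other animals. Xist was 5.33 to 6.75 in them and 3.53 to 4.96 in the others, which is the pattern of females. The labels give no sex, and no sleep animal was set apart, so the states were not balanced in this. Among 147 probe sets of genes not expected in brain, the 95th percentile lay between 4.73 and 5.30 log2 in the 6 groups, and each of the 10 member probe sets had a higher mean in each group. A gene is called at an adjusted p below 0.05 (limma, Benjamini-Hochberg over 13924 genes), and changes carry the standard error of that fit. In bulk RNA such as this, a change in the number of cells of a type and a change in the RNA per cell cannot be told apart. Levels are compared for 1 probe set at a time.

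Cdkn1a had its highest levels in the bound fraction of sleep deprived mice and its lowest in the bound fraction of sleeping mice. Its brighter probe set, 1421679_a_at, read 7.34, 7.82, 7.18, 7.28, 7.72 and 7.74 log2 in the bound arrays of sleep animals 1 to 6. In the waking animals it read 8.63, 7.76, 9.43, 7.97, 8.47 and 7.88. In the sleep deprived animals 6 to 11 it read 12.39, 9.56, 13.39, 12.64, 11.16 and 13.52. All sleep deprived arrays lay above all waking and sleep arrays, and waking animal 2 alone fell within the range of sleep. The sleep deprived animals also differed most among themselves, from 9.56 in animal 7 to 13.52 in animal 11 (mean 12.11, SD 1.51, n = 6), against an SD of 0.28 in sleep (mean 7.51, n = 6) and 0.63 in waking (mean 8.36, n = 6). The mean of sleep deprivation was 4.60 ± 0.49 log2 above sleep (SE), 24.2-fold, and 3.75 ± 0.49 above waking, 13.5-fold. These were the largest absolute changes, rank 1 of 13924 genes, in both comparisons, and they are the values for which the gene was picked. The mean of waking was 0.84 ± 0.49 above sleep. Waking animal 3 and sleep deprived animal 11, the highest of their states, are among the 3 animals that sex-linked genes set apart. Without those 3 animals, the difference between sleep deprivation and sleep was 4.31 log2 and that between waking and sleep 0.55 log2. Sleep deprived animal 7 is the one without which the difference between sleep deprivation and sleep grew most, to 5.11.

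In the unbound arrays Cdkn1a rose with sleep deprivation in every animal, by less than in the bound arrays. The same probe set read 8.62, 8.73, 9.10, 8.56, 8.50 and 8.61 log2 in sleep. In waking it read 9.16, 8.87, 9.19, 8.92, 8.97 and 8.97, and in sleep deprivation 10.63, 10.54, 10.88, 10.60, 10.24 and 11.00. No sleep deprived array overlapped the arrays of another state, and the groups were narrow (SD 0.22, 0.13 and 0.26, n = 6 each). Cdkn1a rose by 1.96 ± 0.13 log2 from sleep to sleep deprivation, 3.89-fold (adjusted p = 1.15e-08, limma), and stood 1.64 ± 0.13 log2 above waking (adjusted p = 5.87e-07), which is 1.52 relative to the median of all genes in that comparison (0.11). By p it ranked 2 of 13924 genes in the first and 1 in the second. The difference of waking from sleep, 0.32 ± 0.13 log2, did not pass (adjusted p = 0.117), with 6 of 6 waking arrays above the sleep mean. It passed without sleep animal 3, the highest of its group (0.41 log2, adjusted p = 0.0425), and did not pass in 17 of 18 runs that each left out 1 animal. The summed level of the oligodendrocyte markers was 14.48 to 14.60 log2 in unbound sleep deprived, 14.32 to 14.48 in unbound sleep and 14.28 to 14.40 in unbound waking arrays, so the sleep deprived range met the upper end of sleep. Of these 9 markers 3 rose and 1 fell in unbound sleep deprivation against sleep, and of the 8 neuron, 6 astrocyte and 6 microglia markers none was called (limma), where 4.65% of all genes were called higher and 3.17% lower. The part of the markers in the rise of Cdkn1a was not tested.

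**Figure D1:**
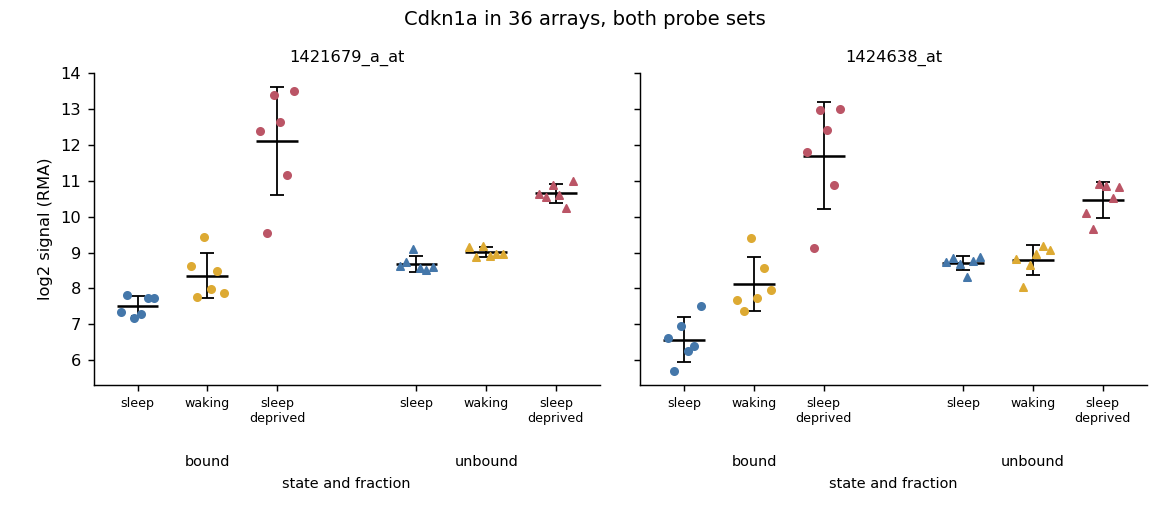
Cdkn1a in each of 36 arrays, log2 signal, for both probe sets, by state and fraction (circles bound, triangles unbound; bars are the mean and SD of 6 animals). The sleep deprived arrays are the highest of each fraction, with a range of 9.56 to 13.52 in bound and 10.24 to 11.00 in unbound arrays for 1421679_a_at.

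The dimmer Cdkn1a probe set, 1424638_at, gave the same order of states with a wider gap at the low end. Its bound sleep arrays read 6.63, 5.71, 6.95, 6.24, 6.40 and 7.52 log2. Its bound waking arrays read 7.68, 7.36, 9.41, 7.74, 8.56 and 7.96, and its bound sleep deprived arrays 11.81, 9.13, 12.97, 12.41, 10.88 and 12.99. Sleep deprived animal 7, the lowest again, lay below waking animal 3, so these groups overlapped, whereas sleep deprived and sleep arrays did not. The differences from sleep were 5.12 ± 0.53 log2 in sleep deprivation and 1.54 ± 0.53 in waking. In the unbound arrays of this probe set, sleep ran from 8.33 to 8.87 (median 8.75), waking from 8.04 to 9.18 (median 8.89) and sleep deprivation from 9.65 to 10.92 (median 10.67). The rise from sleep to sleep deprivation was 1.77 ± 0.21 log2 (adjusted p = 2.3e-05 over all probe sets, limma), and waking differed from sleep by 0.08 ± 0.21 (adjusted p = 0.842).

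Within an animal, the fraction in which Cdkn1a was higher depended on the state. For 1421679_a_at the bound array minus the unbound array of the same mouse averaged −1.17 log2 in sleep (SD 0.43, n = 6), with 0 of 6 animals higher in bound, and −0.65 in waking (SD 0.52), with 1 of 6. In sleep deprivation it averaged 1.46 (SD 1.34), with 5 of 6 higher in bound and animal 7 the exception at −0.98. The mean over the states was −0.12 ± 0.18 log2, which is 0.23 relative to the median of all genes (−0.35). It was 0.13 after quantile normalization over all arrays and 0.041 without sleep deprived animal 7. The second probe set, 1424638_at, gave −0.53 ± 0.18 log2, to be read beside the same median. These means hold the bound values that chose the gene and are given without a test. The order of the 6 group means ran from bound sleep (7.51) through bound waking (8.36), unbound sleep (8.69), unbound waking (9.01) and unbound sleep deprived (10.65) to bound sleep deprived (12.11). Bound waking and unbound sleep, and unbound and bound sleep deprived, were neighbours closer than the larger SD of the pair.

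Set against the sleep mean of its fraction, each sleep deprived animal showed a larger change of Cdkn1a in its bound than in its unbound array. The bound and unbound changes were 4.88 and 1.94 log2 in animal 6, 2.04 and 1.86 in animal 7, and 5.87 and 2.19 in animal 8. In animals 9, 10 and 11 they were 5.13 and 1.91, 3.64 and 1.56, and 6.01 and 2.31. Animal 7 had nearly equal changes, and animals 8 and 11 had the largest in both fractions. In the 6 waking animals the bound change ran from 0.24 to 1.92 and the unbound change from 0.18 to 0.50, and the bound change was again the larger in 6 of 6. Whether the change differs between the fractions was not tested, since the bound values chose the gene.

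Animals also differed from their own group mean, and these deviations are set side by side between bound and unbound arrays as a description, with no test, since the bound values chose the gene. For Cdkn1a they correlated with r = 0.54 and rho = 0.65 over 18 animals, and r was 0.53 without the 2 animals farthest from the median, sleep deprived 7 and 11. Within a state of 6 animals r was 0.89 in waking, 0.70 in sleep deprivation and −0.47 in sleep, so the relation was not seen in sleep. The 5 other genes gave r from −0.47 (Cdkn1b, −0.16 without 2 animals) to 0.12 (Gadd45b) over the same animals. The 2 arrays of an animal share their forebrain sample.

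**Figure D2:**
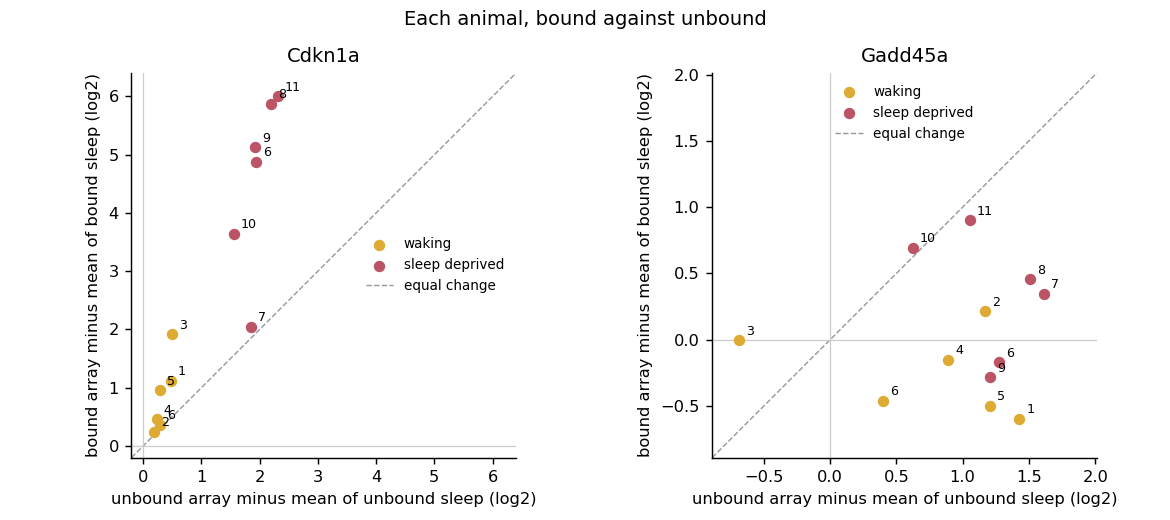
Change of Cdkn1a and Gadd45a from the sleep mean of the same fraction in each waking and sleep deprived animal, bound (vertical, log2) against unbound (horizontal, log2), with the animal's number and a dashed line of equal change. For Cdkn1a all 12 animals lie above the line; for Gadd45a 10 of 12 lie below it.

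Cdkn1b, the gene of p27, was higher in the bound than in the unbound fraction and differed little between states. Its brighter probe set, 1419497_at, ran in the bound arrays from 11.16 to 11.59 log2 in sleep (median 11.22), 11.46 to 11.95 in waking (median 11.55) and 11.51 to 11.71 in sleep deprivation (median 11.56). In the unbound arrays it ran from 10.40 to 10.74 (median 10.53), 10.16 to 10.69 (median 10.36) and 10.28 to 10.80 (median 10.61). All 18 animals had more in bound than in unbound. No bound array overlapped an unbound one, and the share of all genes without such overlap was not computed. The difference was 0.99 ± 0.06 log2 (adjusted p = 3.02e-12, limma), or 1.34 relative to the median of all genes, which lay at −0.35 log2. The second probe set, 1434045_at, gave 0.95 ± 0.06 (adjusted p = 3.96e-12 over all probe sets). Fraction differences were common, with 83.6% of all genes called and 25.5% called higher in bound. In the bound arrays waking stood 0.31 ± 0.08 and sleep deprivation 0.30 ± 0.08 log2 above sleep, with 6 of 6 animals of each above the sleep mean and sleep animal 2, at 11.59, inside both ranges. In the unbound arrays the changes were −0.18 ± 0.09 for waking (adjusted p = 0.261, limma), 0.04 ± 0.09 for sleep deprivation (adjusted p = 0.849) and 0.22 ± 0.09 for sleep deprivation against waking (adjusted p = 0.146). Relative to the median of all genes, waking against sleep was −0.09 and sleep deprivation against waking 0.10. With an interval of −0.16 to 0.24 log2 (95%, single-probe-set fit), a change of Cdkn1b of the size seen for Cdkn1a lies outside what the unbound arrays allow in sleep deprivation.

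Cdkn1c, the gene of p57, was the one CIP/KIP member whose bound mean was lowest in sleep deprivation. The bound arrays of 1417649_at read 7.28, 7.42, 6.78, 6.95, 7.68 and 6.61 log2 in sleep, 6.91, 6.68, 6.73, 6.56, 6.87 and 6.81 in waking, and 6.12, 6.78, 6.51, 6.48, 7.23 and 5.88 in sleep deprivation. The waking animals agreed closely, and the other states overlapped, with sleep deprived animal 10 above 3 of the sleep animals. The mean difference of sleep deprivation from sleep was −0.62 ± 0.21 log2, and 5 of 6 sleep deprived arrays were below the sleep mean. In the unbound arrays the animals spread widely, from 5.65 to 7.25 in sleep, 5.09 to 7.06 in waking and 5.47 to 7.47 in sleep deprivation, and the changes were −0.36 ± 0.36 for waking (adjusted p = 0.586) and −0.05 ± 0.36 for sleep deprivation (adjusted p = 0.95). Bound exceeded unbound in 11 of 18 animals by a mean of 0.34 ± 0.18 log2 (adjusted p = 0.0795), which passed at 0.92 when all arrays were quantile normalized together (adjusted p = 9.89e-05) and at 0.40 to 0.42 without any 1 of sleep animal 6, waking animal 2 and sleep deprived animal 8.

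**Figure D3:**
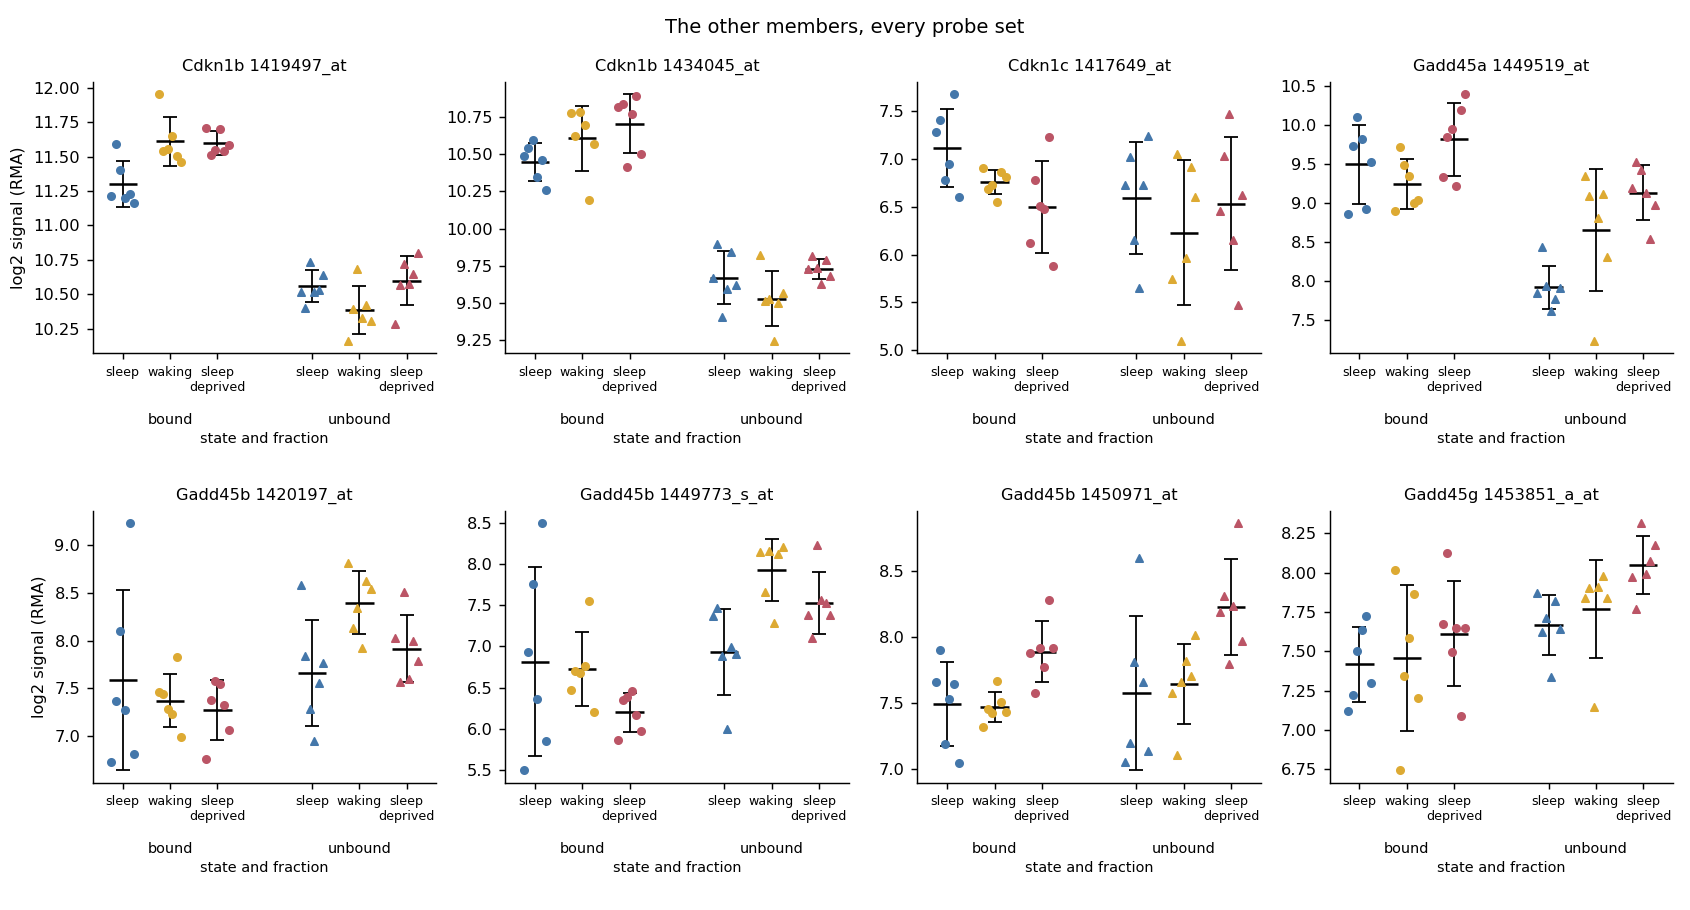
The 8 probe sets of the other 5 genes in each of 36 arrays, log2 signal, by state and fraction (circles bound, triangles unbound; bars are the mean and SD of 6 animals; each panel has its own scale). Cdkn1b 1419497_at has group means of 11.30 to 11.61 in bound and 10.38 to 10.60 in unbound arrays, and unbound Gadd45a stands at 7.92 in sleep and 9.13 in sleep deprivation.

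Gadd45a rose in the unbound arrays with sleep deprivation, where its bound level differed by less than its spread. The unbound arrays of 1449519_at read 7.84, 8.44, 7.95, 7.62, 7.78 and 7.91 log2 in sleep, 9.35, 9.09, 7.23, 8.81, 9.13 and 8.32 in waking, and 9.20, 9.54, 9.43, 9.13, 8.55 and 8.97 in sleep deprivation. The sleep deprived arrays did not overlap those of sleep, and among the waking animals 4 reached the sleep deprived range while animal 3 had the lowest of all unbound values. The rise from sleep to sleep deprivation was 1.21 ± 0.28 log2, 2.32-fold (adjusted p = 0.00995, 6 of 6 animals above the sleep mean). Waking stood 0.73 ± 0.28 above sleep and did not pass (adjusted p = 0.108). It passed without waking animal 3 (1.02 log2, adjusted p = 0.00534) and without the 3 animals set apart by sex-linked genes, which include animal 3 (0.97, adjusted p = 0.022). In 17 of 18 runs that each left out 1 animal it did not pass. Sleep deprivation against waking gave 0.48 ± 0.28 (adjusted p = 0.283).

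In the bound arrays Gadd45a read 8.86, 9.74, 10.11, 9.83, 8.93 and 9.53 log2 in sleep, 8.91, 9.72, 9.50, 9.35, 9.00 and 9.04 in waking, and 9.33, 9.85, 9.96, 9.22, 10.19 and 10.40 in sleep deprivation. The 3 states overlapped, with means of 9.50, 9.25 and 9.82. Bound exceeded unbound in 16 of 18 animals, by 0.96 ± 0.16 log2 (adjusted p = 1.1e-05), 1.31 relative to the median of all genes. The excess averaged 1.58 (SD 0.51) in sleep, 0.60 (SD 0.94) in waking and 0.69 (SD 0.68) in sleep deprivation, and the 2 animals with more in unbound were waking animals. Of the 6 sleep deprived mice, 1 had a larger change from sleep in its bound than in its unbound array, the reverse of Cdkn1a, and this contrast between the genes was not tested.

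Gadd45b gave different answers by probe set. The main one, 1450971_at, read 7.05, 7.19, 7.81, 8.60, 7.66 and 7.14 log2 in unbound sleep, 7.57, 7.11, 7.66, 7.82, 7.70 and 8.01 in unbound waking, and 8.19, 8.31, 7.79, 8.23, 8.86 and 7.97 in unbound sleep deprivation. Sleep animals 3 and 4 lay within the sleep deprived range, and the change from sleep, 0.65 ± 0.24, missed the threshold (adjusted p = 0.101). It passed without sleep animal 4 (0.86 log2, adjusted p = 0.0159), and did not pass in 17 of 18 runs that each left out 1 animal. Over the other 6 alternatives its adjusted p (limma) ran from 0.0201 to 0.121, so the call also depended on the processing. The other 2 probe sets had their highest unbound mean in waking: 1449773_s_at stood 0.99 ± 0.24 log2 above sleep (adjusted p = 0.00926 over all probe sets) and 1420197_at 0.74 ± 0.23 (adjusted p = 0.043), with 6 of 6 waking animals above the sleep mean in both. For sleep deprivation they gave 0.59 ± 0.24 (adjusted p = 0.108) and 0.25 ± 0.23 (adjusted p = 0.533). The main probe set gave 0.07 ± 0.24 for waking (adjusted p = 0.891), so a change of Gadd45b in waking rests on which probe set is read.

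In the bound arrays 1450971_at ran from 7.05 to 7.90 log2 in sleep, 7.32 to 7.66 in waking and 7.57 to 8.27 in sleep deprivation (medians 7.58, 7.44 and 7.89). The other 2 probe sets spread most in bound sleep, from 5.49 in animal 1 to 8.50 in animal 5 for 1449773_s_at (SD 1.15) and from 6.72 to 9.23, in the same animals, for 1420197_at (SD 0.94). Their sleep deprived bound means were below sleep, by −0.62 and −0.31 log2, while the main probe set was above it by 0.39. Bound minus unbound was −0.20 ± 0.11 for the main probe set (adjusted p = 0.101) and turned to 0.22 after quantile normalization over all arrays. It was −0.88 ± 0.18 for 1449773_s_at (adjusted p = 0.000171 over all probe sets) and −0.58 ± 0.17 for 1420197_at (adjusted p = 0.00474), with 15 of 18 animals lower in bound for both.

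Gadd45g, with 1 probe set, 1453851_a_at, had the smallest range of the GADD45 genes over all arrays, by their main probe sets. Unbound arrays ran from 7.34 to 7.87 log2 in sleep (median 7.68), 7.15 to 7.98 in waking (median 7.87) and 7.77 to 8.31 in sleep deprivation (median 8.03). The sleep deprived arrays were all above the sleep mean, and 2 sleep animals reached their range. The change, 0.38 ± 0.15 log2, did not pass (adjusted p = 0.127), nor did 0.28 ± 0.15 against waking (adjusted p = 0.243). Bound arrays ran from 7.12 to 7.72 in sleep, 6.74 to 8.02 in waking and 7.09 to 8.13 in sleep deprivation and overlapped throughout. Bound minus unbound was −0.33 ± 0.11 (adjusted p = 0.00787, 14 of 18 animals lower in bound), and lay 0.02 above the median of all genes. It turned to 0.10 and was not called when all arrays were quantile normalized together.

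**Figure D4:**
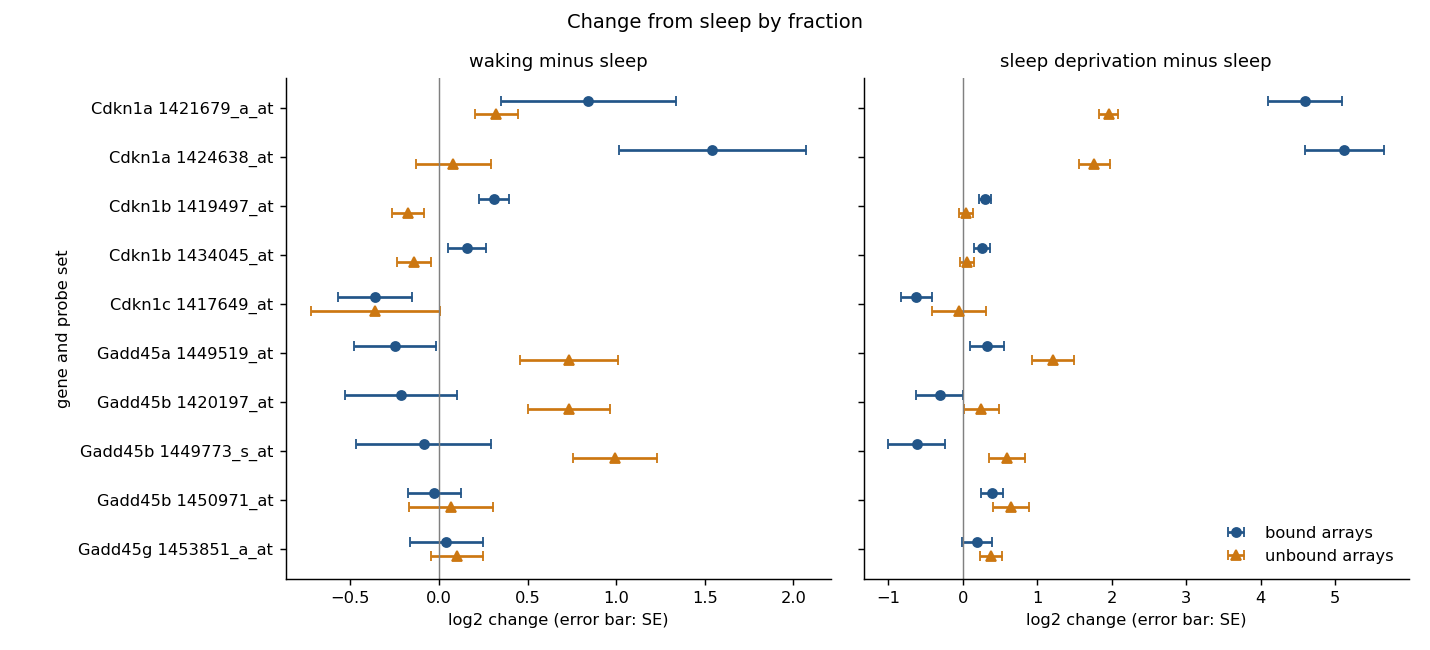
Change from sleep (log2, with SE) of all 10 probe sets in waking and in sleep deprivation, bound arrays as circles and unbound arrays as triangles; the panels have different scales. Both Cdkn1a probe sets stand at 4.60 and 5.12 in bound and 1.96 and 1.77 in unbound sleep deprived arrays, and the bound Gadd45b probe sets fall on both sides of 0.

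Counted over the 6 genes, unbound sleep deprivation against sleep called 2, Cdkn1a and Gadd45a, both higher, where 7.82% of all tested genes were called and 4.65% were called higher. Their groups did not overlap, as in 5.14% of all genes. Unbound sleep deprivation against waking called 1, Cdkn1a, higher and without overlap, where 9.94% of all genes were called, 8.45% were called higher and 5.45% had no overlap. Unbound waking against sleep called 0 (limma), against 7.21%, and 2 genes, Cdkn1a and Gadd45a, had an unadjusted p below 0.05. Of the 6 genes 5 had a positive change in unbound sleep deprivation against sleep, against 54.3% of all genes, with a median of 0.52 log2 against 0.02. Bound against unbound called 3, Cdkn1b, Gadd45a and Gadd45g, against 83.6% of all genes. The bound comparisons called 1 in waking against sleep (background 9.47%), 2 in sleep deprivation against sleep (14.4%) and 1 in sleep deprivation against waking (5.01%), and Cdkn1a had no overlap in the last 2 (background 7.33% and 3.76%). Nothing is read from these bound counts, since they hold the values that chose the group. The unbound counts, the number of positive changes and the median include Cdkn1a, which was chosen for its bound change in the same mice. They are therefore a description of the group too, and Gadd45a is the only other gene called in them. State comparisons within a fraction share their sleep arrays.

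Among genes with a characterised symbol, the one whose 6 group means followed Cdkn1a most closely was Fkbp5, a co-chaperone of steroid receptors. Genes whose symbols had the form of uncharacterised ones were skipped. Likeness was the root mean square difference of the group means after centring each gene within each fraction, over 6 groups, and Cdkn1a's own root mean square was 1.54 log2. Fkbp5 differed by 0.54, Zbtb16, a zinc finger transcription factor, by 0.73, the secreted phospholipase gene Pla2g3 by 0.78, the sulfotransferase gene Sult1a1 by 0.81 and the chaperone gene Hspa1a by 0.86. Even the nearest differed by a sizeable part of the pattern itself: sleep deprivation minus sleep was 3.20 log2 for Fkbp5, 2.71 for Zbtb16, 3.06 for Pla2g3, 3.32 for Sult1a1 and 3.24 for Hspa1a in bound arrays, all below the 4.60 of Cdkn1a. In unbound arrays the same difference was 1.03, 0.67, 0.77, 1.57 and 0.67 log2, against 1.96. Pla2g3 had means within the level of genes not expected in brain in bound sleep (4.39 log2) and in all 3 unbound groups (4.25 to 5.01), and Sult1a1 in bound sleep (3.90). Sult1a1 stood out by its unbound waking level, 1.49 log2 above sleep, against 0.32 for Cdkn1a.

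**Figure D5:**
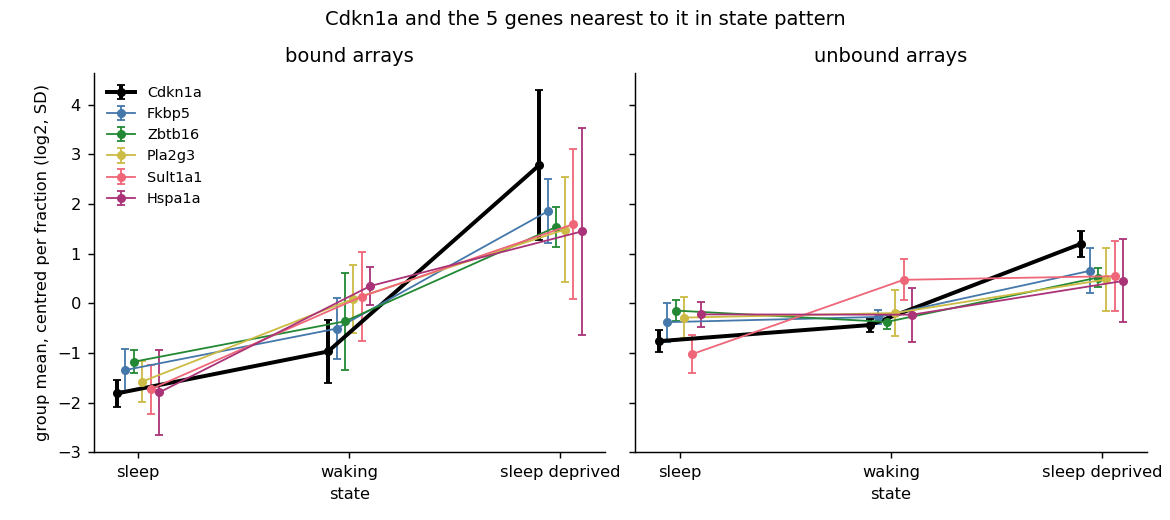
Group means of Cdkn1a and the 5 genes with a characterised symbol nearest to it, log2, centred within each fraction, by state, with the SD over 6 animals as bars and points set apart sideways for legibility. Cdkn1a (black) runs from −1.81 to 2.78 in bound and from −0.76 to 1.20 in unbound arrays, the widest span of the 6 genes in bound arrays.

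The GADD45 genes had other neighbours, sought among the same genes. Gadd45a, with a pattern of 0.39 log2, was nearest to Zkscan3 (0.09), Creld2 (0.11) and Acaa1b (0.11), whose unbound sleep deprived means were 1.14, 1.19 and 1.49 log2 above sleep. Gadd45b (0.25) was nearest to Rif1 (0.04), Stk17b (0.04) and Pdzd2 (0.05), and Gadd45g (0.13) to Cryab (0.02), a small heat shock protein of oligodendrocytes and astrocytes, Atxn3 (0.03) and Hnrnph3 (0.03). None of these sets shared a gene with that of Cdkn1a.

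Other targets of p53 were counted in the same way, with no test of the list. This list and those that follow were chosen with earlier results of these data known. The genes named from them are called ones with the largest changes. Their adjusted p-values (limma, over all genes) are therefore given as a description. Of 24 listed genes 21 were tested, and in sleep deprivation against sleep 4 rose and 0 fell in bound, 4 rose and 1 fell in unbound arrays, with list medians of 0.06 and 0.18 log2 against −0.01 and 0.02 for all genes. Of all genes 7.53% were called higher in bound and 4.65% in unbound arrays, and 6.87% and 3.17% were called lower. These shares are also the background for the lists that follow. Trp53inp1, a p53-induced stress protein gene, rose in both, by 0.47 ± 0.13 in bound (adjusted p = 0.0187) and 0.80 ± 0.23 in unbound (adjusted p = 0.0345). Pmaip1, which encodes the cell death protein NOXA, was called higher in bound arrays (0.58 ± 0.17, adjusted p = 0.0279), where its means of 2.41 log2 in sleep and 3.00 in sleep deprivation lay within the level of genes not expected in brain, below their 95th percentile. Apaf1, of the apoptosome, rose in unbound by 0.55 ± 0.17 (adjusted p = 0.0465), as did Gtse1, a regulator of p53, by 0.53 ± 0.15 (adjusted p = 0.0376). Of 7 tested genes of p53 and its regulators 1 rose and 1 fell in bound and 0 rose and 1 fell in unbound arrays: the checkpoint kinase gene Chek2 was called higher in bound (0.59 ± 0.17, adjusted p = 0.0242) and lower in unbound (−1.58 ± 0.21, adjusted p = 0.000148), and the kinase gene Atr lower in bound (−1.11 ± 0.33, adjusted p = 0.0293). Each of these changes had 1 end within that same level: Chek2 stood at 4.48 log2 in bound sleep and 4.36 in unbound sleep deprivation, and Atr at 4.84 in bound sleep deprivation.

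Cyclins and their kinases are what CIP/KIP proteins act on. Of 17 tested cyclins, cyclin-dependent kinases and their pocket protein partners, 0 rose and 2 fell in bound sleep deprivation against sleep, Cdk5r1, the neuronal activator of CDK5 (−0.36 ± 0.11, adjusted p = 0.0375), and Ccnh (−0.30 ± 0.09, adjusted p = 0.0397), and 0 were called in unbound arrays, 4 having an unadjusted p below 0.05 (limma). Of 11 tested proliferation genes 1 rose in bound, the replication helicase gene Mcm4 (0.57 ± 0.16, adjusted p = 0.021), and 0 were called in unbound arrays (2 unadjusted). Of 3 tested genes of the list headed by the INK4 inhibitors, the other family of CDK inhibitors, Cdkn2c fell in bound (−0.52 ± 0.16, adjusted p = 0.0393) and 0 were called in unbound arrays (0 unadjusted). Of 8 tested genes of FOXO factors, which drive Cdkn1b, and of p27 turnover, Cops5 fell in bound (−0.34 ± 0.10, adjusted p = 0.0307) and 0 were called in unbound arrays (1 unadjusted).

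Among the partners of GADD45 proteins, 12 stress kinases were tested, of which 0 were called in bound (3 at an unadjusted p below 0.05) and 1 rose in unbound sleep deprivation against sleep, Map3k5, the apoptosis signal kinase ASK1 (0.37 ± 0.09, adjusted p = 0.0187). Of 6 tested DNA demethylation genes, 1 fell in bound, the cytidine deaminase gene Apobec1 (−1.43 ± 0.47, adjusted p = 0.0469), whose mean of 4.12 log2 in sleep deprivation lay within the level of genes not expected in brain, and 0 were called in unbound arrays (2 unadjusted). Of the 4 other growth arrest and DNA damage genes 1 rose in bound and 2 in unbound arrays, where 7.53% and 4.65% of all genes were called higher. Ddit4, an inhibitor of the mTOR pathway, rose by 0.46 ± 0.14 in bound (adjusted p = 0.0348) and 0.46 ± 0.13 in unbound (adjusted p = 0.0346), and Ddit3, the stress factor CHOP, by 0.42 ± 0.09 in unbound (adjusted p = 0.00764).

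The list with most calls was that of glucocorticoid response genes, to which no member belongs. Of 19 tested genes 15 rose and 0 fell in bound and 11 rose and 0 fell in unbound sleep deprivation against sleep, with medians of 1.21 and 0.67 log2. In waking against sleep 5 rose in bound and 3 in unbound arrays, with medians of 0.35 and 0.11. Plin4, a lipid droplet protein gene, rose by 4.31 ± 0.33 in bound and 2.92 ± 0.16 in unbound. Fkbp5 rose by 3.20 ± 0.30 and 1.03 ± 0.20, Zbtb16 by 2.71 ± 0.33 and 0.67 ± 0.11, and Sult1a1 by 3.32 ± 0.55 and 1.57 ± 0.28. The bound sleep mean of Sult1a1 (3.90 log2) and the unbound sleep mean of Plin4 (4.91) lay within the level of genes not expected in brain, so these differences start from a group not above background. The list was written with the rise of several of its genes in these data known. Its counts and the changes of its named genes are therefore a description, without a test.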

How the data were processed

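Messenger RNA was measured on 36 arrays, 2 fractions from each of 18 mice. The values deposited by the authors are on the log2 scale, 1 per probe set and array. RMA is the tool that the submitters' processing notes name (version: not given in the sources used here), and no normalization was added. Of 45101 probe sets, 34945 had 1 gene symbol, 932 several and 9160 none, and 64 were controls. Per gene, the probe set with the highest mean was kept, and 13924 of 18193 genes passed the filter, a mean at or above the 40th percentile of probe sets (4.471 log2 in bound, 5.183 in unbound arrays) in either fraction. All 6 members passed. Single probe sets were tested in a second fit over all probe sets with 1 gene.

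State differences came from a group-means fit of the 18 arrays of a fraction, and bound against unbound from per-animal differences, with limma 3.58.1 in R 4.3.3 (package data.table, version 1.17.8), variance moderation with an intensity trend and two-sided tests. The pairing of fractions follows from the labels, which give both arrays of an animal the same number. Their deviations from group means correlated by −0.0032 to 0.0848 (mean 0.0458) over genes. Correlations were computed in Python (version 3.11.15, numpy 2.4.6, pandas 2.3.3, scipy 1.17.1; figures matplotlib 3.10.9). The fits were tested on simulated data.

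The members and the gene lists were chosen with earlier results of these data known. Whether unbound values entered that choice is not recorded. Named genes are all members, up to 4 called genes of each list with the largest change in sleep deprivation against sleep, the 5 genes nearest to Cdkn1a and the 3 nearest to each GADD45 gene. Symbols with the form of uncharacterised genes were skipped among the nearest. Alternatives were 2 quantile normalizations, the mean of a gene's probe sets, no filter, no trend, a replicate block, and leaving out each animal or the 3 set apart by sex-linked genes.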

Additional observations from a re-analysis of the deposited data

Results flagged for a closer look

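Among 60 groups of 6 animals (10 probe sets in 6 groups), 3 held an animal far from the rest by Dixon's criterion at the 95% level, where chance gives about 5% of groups. Unbound sleep animal 4 was low for Cdkn1a 1424638_at, at 8.33 log2 with the next animal at 8.68. Bound waking animal 5 was low for Cdkn1b 1434045_at, at 10.2 with the next at 10.57. Unbound waking animal 3 was low for Gadd45g, at 7.15 with the next at 7.84, and the same array held the lowest unbound Gadd45a value. Gadd45b 1449773_s_at moved in opposite directions in the fractions between sleep and sleep deprivation, by −0.62 log2 in bound and 0.59 in unbound arrays, with each sleep deprived animal below the bound and above the unbound sleep mean. The unbound change did not pass (adjusted p = 0.108 over all probe sets, limma), and bound sleep had an SD of 1.15 log2. The main Gadd45b probe set, 1450971_at, changed by 0.39 in bound and 0.65 in unbound arrays. The difference between the fractions was not tested.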

How the results depend on the processing

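The called state changes of the unbound arrays, Cdkn1a in both sleep deprivation comparisons and Gadd45a against sleep, kept their direction and passed under every alternative run, leaving out each animal included. So did the fraction differences of Cdkn1b and Gadd45a. The differences of Cdkn1a between bound sleep deprivation and both other states kept their direction, at 4.31 to 5.11 and 3.47 to 4.26 log2.

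Under quantile normalization, within a fraction or over all arrays, bound sleep deprivation against sleep called 1 member instead of 2. Bound waking against sleep called 0 instead of 1 with the mean of probe sets, without a trend, without the 3 animals set apart, and with a replicate block. Unbound waking against sleep called 1 instead of 0 with the mean of probe sets or without the 3 animals, and unbound sleep deprivation against waking called 2 instead of 1 with the mean of probe sets. In unbound sleep deprivation against sleep the alternatives called 2 to 3 members, Gadd45b being the one added. Leaving out 1 animal gave 0 to 1, 1 to 3 and 0 to 1 calls in bound waking and bound sleep deprivation against sleep and unbound waking against sleep. The bound counts hold the values that chose the group, and nothing is read from them. Of values near 0, Cdkn1b in unbound sleep deprivation against sleep turned to −0.0094 and −0.0093 under the quantile normalizations and to −0.00022 without the 3 animals, and bound Gadd45g in waking against sleep to −0.029. With quantile normalization over all arrays the fraction differences turned to 0.13 (Cdkn1a), 0.22 (Gadd45b) and 0.10 (Gadd45g). The mean of probe sets gave −0.18 and −0.069 for bound Gadd45b against sleep and waking, −0.10 for unbound Gadd45b against waking and 0.044 for bound Cdkn1b against waking. Leaving out 1 animal spanned 0 for Gadd45b in waking against sleep (bound −0.12 to 0.054, unbound −0.034 to 0.27), bound Gadd45g in waking (−0.069 to 0.19), bound Cdkn1b in sleep deprivation against waking (−0.041 to 0.057), Cdkn1a between fractions (−0.19 to 0.041), and, in unbound sleep deprivation against sleep, Cdkn1c (−0.24 to 0.16) and Cdkn1b (−0.00022 to 0.10). The causes were not tested.

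Sleep and waking animals of 1 number are different mice, whose deviations correlated by −0.0009 to 0.087 in bound and −0.0050 to 0.10 in unbound arrays, so the replicate block is no pairing. It gave 464 instead of 1004 calls over all genes in unbound waking against sleep. Without the pairing of fractions, 3 members were called, as with it. Quantile normalization within a fraction gave 581 instead of 1384 calls in unbound sleep deprivation against waking, 283 higher instead of 1177, and 680 instead of 1004 in unbound waking against sleep, 342 higher instead of 207. Without the 3 animals 684 instead of 1318 genes were called in bound and 533 in unbound waking against sleep, and 234 instead of 698 and 710 instead of 1384 in bound and unbound sleep deprivation against waking. Without the filter on low values 2124 to 3551 genes were called in the state comparisons.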
